A study of Rattus norvegicus with 6 samples.

Results

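Benzoate activation and glycine conjugation in the rat kidney were examined through 2 gene families, the acyl-CoA synthetase medium-chain genes (Acsm1 to Acsm5) and the glycine N-acyltransferase genes (Glyat and its relatives). They were chosen by name, with earlier results of these data known. Of 10 names given, Keg1 is listed by RefSeq as an older name of Glyatl2, so the names stand for 9 genes, 5 synthetases and 4 acyltransferases, of 15645 genes with a symbol on the array. They are measured by 14 of its 61537 probes. Renal cortex came from 6 male Sprague-Dawley rats, Crl:CD(SD), 5 weeks old at purchase and fed a basal diet, with 1 one-colour Agilent array per animal. In the treated group 3 rats received benzyl acetate at 1000 mg/kg/day for 4 weeks, and in the vehicle group 3 rats received corn oil for 4 weeks. The tissue is a mixture of cells, so fewer cells of a type and less RNA per cell cannot be told apart in any value below.

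Benzyl acetate is an ester used in perfumes and foods. Esterases split it, and the benzyl alcohol set free is oxidised to benzoic acid. Benzoic acid is joined to coenzyme A by medium-chain acyl-CoA synthetases of the mitochondrial matrix, and glycine N-acyltransferase then passes the benzoyl group to glycine, which yields hippuric acid. Liver and the proximal tubule of the kidney both carry this pathway, and hippuric acid is secreted into the urine by organic anion transporters.

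In the RefSeq table of the GRCr8 assembly all 5 synthetase genes lie in 1 cluster on chromosome 1, in the order Acsm5, Acsm2, Acsm1, Acsm4, Acsm3, with 4 other genes between them. Glyatl1, Glyat and Glyatl2 form a second cluster on chromosome 1 with 2 olfactory receptor genes between them, and Glyatl3 lies alone on chromosome 9. The array design names an older rat build, so only the order and overlap of genes in this table are used here. RefSeq promoter sequences, running from 250 bases before to 50 bases after the start given for each gene, were found for 8 of the 9 genes, all but Glyat. The promoters of 4 genes are shown, picked by their signal values, which were not tested against these sequences. Acsm5 and Acsm1 shared their lowest animal, Acsm3 had the widest spread between treated animals, and Glyatl1 was the gene whose groups did not overlap. Capitals mark matches to GTTAAT, the half-site of hepatocyte nuclear factor 1, and to AGGTCA, a nuclear receptor half-site, on either strand, and the matches did not overlap.
Acsm5, chr1:183302259-183302558, + strand: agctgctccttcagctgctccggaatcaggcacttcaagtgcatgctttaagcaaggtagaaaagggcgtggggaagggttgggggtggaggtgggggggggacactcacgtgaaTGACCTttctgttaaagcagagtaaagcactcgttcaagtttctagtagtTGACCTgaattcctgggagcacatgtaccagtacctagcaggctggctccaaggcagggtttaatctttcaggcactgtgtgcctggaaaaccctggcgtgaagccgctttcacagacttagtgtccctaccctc
Acsm1, chr1:183416802-183417101, + strand: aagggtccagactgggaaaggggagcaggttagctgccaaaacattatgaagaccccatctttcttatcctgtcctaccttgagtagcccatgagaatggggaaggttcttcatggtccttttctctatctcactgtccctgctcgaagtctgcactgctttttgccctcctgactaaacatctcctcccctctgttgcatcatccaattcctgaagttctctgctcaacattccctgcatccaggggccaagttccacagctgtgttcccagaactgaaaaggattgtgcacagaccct
Acsm3, chr1:183564402-183564701, + strand: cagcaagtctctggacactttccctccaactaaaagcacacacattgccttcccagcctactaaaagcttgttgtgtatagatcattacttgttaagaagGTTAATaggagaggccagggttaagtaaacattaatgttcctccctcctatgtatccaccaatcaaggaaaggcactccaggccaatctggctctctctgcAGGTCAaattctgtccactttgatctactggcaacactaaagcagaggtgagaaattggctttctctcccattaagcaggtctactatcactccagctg
Glyatl1, chr1:219101798-219102097, + strand: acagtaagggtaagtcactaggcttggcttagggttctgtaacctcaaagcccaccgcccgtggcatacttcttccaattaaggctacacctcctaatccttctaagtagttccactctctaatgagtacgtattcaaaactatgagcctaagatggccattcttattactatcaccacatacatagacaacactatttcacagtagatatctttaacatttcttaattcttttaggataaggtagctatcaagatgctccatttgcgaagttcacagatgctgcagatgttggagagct
Acsm3 had 1 GTTAAT match, 150 bases before the start, and 1 AGGTCA match, 49 bases before it. Acsm5 had 2 matches to AGGTCA on the other strand, 135 and 85 bases before the start. No match was found in the Acsm1 and Glyatl1 windows, which says only that these letters are not in them. GTTAAT occurred in 1 of the 8 member promoters and in 7.45% of 33469 RefSeq promoters, and AGGTCA in 3 of 8 (Acsm5, Acsm3 and Glyatl3) and in 16.2% of all. CAAAGTCCA, an HNF4 site, was in none of the 8 and in 0.391% of all, and TATAAA was in 1 (Glyatl2, after the start) and in 14.2% of all. These matches are descriptions of the letters.

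Between 69.0% and 72.0% of the probes on an array exceeded background by the scanner software's test (well above background, the detection rule used throughout), and no spot was saturated. The number of arrays limits the precision. Proximal tubule markers had a mean log2 signal of 5.55 to 5.63 on the treated arrays and 5.49 to 5.56 on the vehicle arrays, where each array's own 75th percentile is 0, over all 13 listed genes. Liver markers, which would show hepatic RNA, had means over 7 of 8 listed genes of -3.87 to -1.14 on the treated arrays and -2.70 to -1.14 on the vehicle arrays. They were uneven, with Fgb near the 75th percentile, at -0.30 with benzyl acetate and -0.22 with vehicle, and Alb varying widely between animals, at -0.61 ± 2.48 with benzyl acetate and -0.14 ± 1.71 with vehicle (SD, n = 3 each). The phosphate carrier Slc34a1, a proximal tubule marker, was at 8.57 with benzyl acetate and 8.59 with vehicle, and the podocyte marker Nphs1 at 1.04 with benzyl acetate and 1.00 with vehicle, so markers of cortex were present on the arrays.

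The first question was which members of each family give signal in renal cortex. Of the 14 probes, 13 passed the detection rule on every one of the 6 arrays and entered the test. The exception was the dimmer Acsm4 probe, A_44_P269070, which was not well above background on any array. All values that follow are log2 signals on that scale. Probes differ in how well they hybridise, so the order below is one of probe signals and not of transcript amounts. By the brightest probe of each gene the order of the vehicle means was Acsm2, Glyat, Glyatl2, Acsm3, Acsm1, Acsm5, Glyatl1, Acsm4 and Glyatl3. Every step down to Acsm4 was free of overlap between the 3 vehicle arrays of neighbouring genes, although Glyatl2 and Acsm3 were only 0.09 apart at their nearest. Acsm4 and Glyatl3 overlapped. The same order held on 4 of the 6 arrays, while Acsm3 stood above Glyatl2 on benzyl acetate replicate 1 and Glyatl3 above Acsm4 on vehicle replicate 1.

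**Figure D1:**
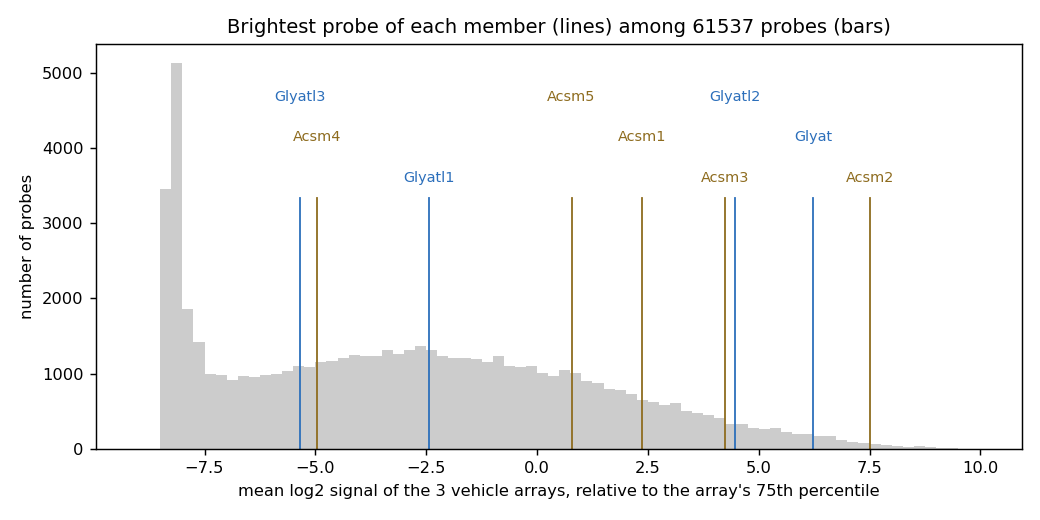
Histogram of the mean log2 signal of the 3 vehicle arrays, with each array's 75th percentile at 0, for 61537 probes (bars, number of probes), with the brightest probe of each member as a line, blue for acyltransferases and brown for synthetases. Acsm2 at 7.51 and Glyat at 6.23 lie in the upper tail, and Acsm4 at -4.96 and Glyatl3 at -5.34 lie among the dim probes.

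The synthetases spanned most of the range of the array. Acsm2, whose human counterparts activate benzoate, and which RefSeq also lists under the older name KS, had signals of 7.41, 7.63 and 7.61 in treated cortex and 7.38, 7.63 and 7.52 in vehicle cortex. It stood at the 99.6th to 99.7th percentile of all probes on every array, and its groups overlapped. Acsm1, a butyrate and medium-chain synthetase with the older name Bucs1, had 2.37, 2.27 and 2.27 in treated cortex and 2.57, 1.97 and 2.57 in vehicle cortex on its brighter probe. Its dimmer probe, A_43_P21616, had -1.71, -1.94 and -2.00 in treated cortex and -1.66, -2.38 and -1.47 in vehicle cortex. Vehicle replicate 2 was the low one on both probes, and the groups overlapped on both. Acsm4, first described as the synthetase of the olfactory mucosa (Omacs), was near the dim end, at -5.06, -4.79 and -4.74 in treated cortex and -5.69, -4.53 and -4.66 in vehicle cortex. Its second probe, the one that was not detected, had -7.23, -7.95 and -7.94 in treated cortex and -8.08, -7.35 and -8.25 in vehicle cortex.

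Acsm3 and Acsm5 varied more between animals. Acsm3, the former Sa gene, is known for a signal in kidney that differs between hypertensive and normotensive rat strains. It had signals of 5.19, 4.33 and 2.73 in treated cortex and 4.17, 4.20 and 4.35 in vehicle cortex. The 3 vehicle animals were close together, while treated replicate 1 lay above and treated replicate 3 below all of them. Acsm5, a less studied synthetase, had 1.33, 0.56 and 0.51 in treated cortex and 1.41, -0.07 and 1.00 in vehicle cortex on its brightest probe, A_44_P992673. Here too vehicle replicate 2 was lowest and the groups overlapped.

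Among the acyltransferases, Glyat, the mitochondrial enzyme that makes hippuric acid, had 6.26, 6.38 and 6.36 in treated cortex and 6.15, 6.24 and 6.30 in vehicle cortex. It lay at the 98.5th to 98.7th percentile of all probes, and the treated animals overlapped the upper end of the vehicle animals. Glyatl2, the former kidney-expressed gene Keg1, whose human counterpart makes long-chain acylglycines, had 4.12, 4.80 and 4.33 in treated cortex and 4.44, 4.51 and 4.47 in vehicle cortex on its brighter probe. Its dimmer probe had 2.34, 2.80 and 2.57 in treated cortex and 2.77, 2.77 and 2.74 in vehicle cortex. On both probes treated replicate 2 was the highest and treated replicate 1 the lowest of the 6 animals. Glyatl3, a relative linked to long-chain acylglycines in mouse cells, was dim, at -5.09, -4.99 and -5.17 in treated cortex and -5.62, -5.36 and -5.03 in vehicle cortex. Glyatl1, whose human counterpart conjugates glutamine, had -3.43, -2.90 and -3.20 in treated cortex and -2.36, -2.49 and -2.47 in vehicle cortex. All 3 treated animals were below all 3 vehicle animals, and on every array the probe was well above background, between the 47.4th and the 56.9th percentile.

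**Figure D2:**
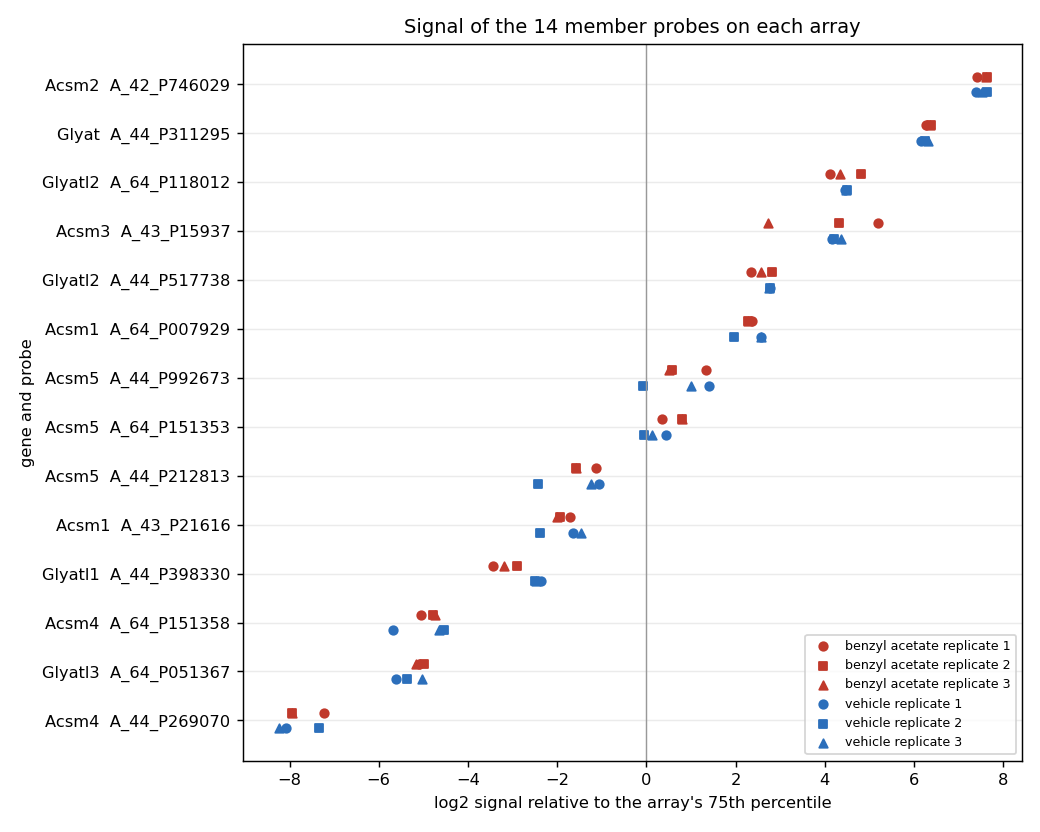
Log2 signal with each array's 75th percentile at 0 (horizontal) for each of the 14 probes (rows, brightest vehicle mean at the top), with benzyl acetate arrays in red above vehicle arrays in blue and a marker shape per replicate number. Glyatl1 is the only tested probe with separate groups, and Acsm3 shows the widest treated spread, 2.73 to 5.19, against 4.17 to 4.35 with vehicle.

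The second question was whether benzyl acetate altered these genes. No member differed at the threshold, an adjusted p under 0.05 in limma over all probes. Of 42355 tested probes limma called 0 (0% called), and the number at an unadjusted p under 0.05 was 2832 (6.69%). Of the 13 tested member probes 7 were higher and 6 lower with benzyl acetate, with a median log2 difference of 0.02, against 0.01 over all tested probes. The median of the members was -0.18 without vehicle replicate 2 and 0.13 without vehicle replicate 3. At an unadjusted p under 0.05 there were 2 of 13 member probes, 1 lower (Glyatl1, against 3.01% of all tested probes) and 1 higher (Acsm5, against 3.68%). Groups did not overlap for 1 of 13 member probes, and for 12.7% of all tested probes.

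Glyatl1 had the lowest p among the members. It averaged -3.18 ± 0.26 with benzyl acetate and -2.44 ± 0.067 with vehicle (SD, n = 3 each). The log2 difference was -0.74 (95% interval -1.08 to -0.39), a 1.67-fold lower signal with an interval of 1.31-fold to 2.11-fold, and it did not pass in limma (adjusted p = 0.598). The exact two-sided permutation p was 0.1, the smallest that 3 against 3 animals allow. Any probe whose groups do not overlap has this value, so it adds nothing to that separation. Leaving out each replicate in turn gave -0.87 to -0.61, and normexp background correction gave -0.50 (adjusted p = 0.579). Over 16 alternatives its adjusted p in limma ran from 0.249 to 0.8. Levels of markers of other cells are set beside this difference. Leukocyte markers were lower for 8 of 8 tested genes, of 10 listed, with mean log2 signals of 0.069 to 0.43 on the treated arrays and 0.57 to 1.47 on the vehicle arrays. Markers of the thick ascending limb, distal tubule and collecting duct were lower for 9 of 11, with means of 4.35 to 4.48 on the treated arrays and 4.48 to 4.73 on the vehicle arrays. None of these markers passed the threshold, and their part in the Glyatl1 difference was not tested.

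Among the 9 members the 2 brightest genes had the narrowest intervals. Glyat averaged 6.33 ± 0.065 with benzyl acetate and 6.23 ± 0.076 with vehicle (SD, n = 3 each), a log2 difference of 0.10 (95% interval -0.081 to 0.28). Acsm2 averaged 7.55 ± 0.12 with benzyl acetate and 7.51 ± 0.13 with vehicle (SD, n = 3 each), a difference of 0.04 (-0.21 to 0.29). Differences of 1.5-fold or more lay outside both intervals. The upper ends were a 1.22-fold higher signal for Glyat and for Acsm2. The same held for both Glyatl2 probes, at -0.05 (-0.48 to 0.37) and -0.19 (-0.50 to 0.11), and for the brighter Acsm1 probe, at -0.07 (-0.50 to 0.36). In all, 5 of 13 member probes had an interval inside 1.5-fold, against 74.7% of all tested probes, and 9 of 13 inside 2-fold, against 91.8%.

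For the other members the intervals were wide. Acsm3 averaged 4.08 ± 1.25 with benzyl acetate and 4.24 ± 0.098 with vehicle (SD, n = 3 each), and its difference of -0.16 ran from -1.62 to 1.30. One animal decided its direction. The difference was 0.52 without benzyl acetate replicate 3 and -0.71 without benzyl acetate replicate 1, neither past the threshold in limma (adjusted p = 0.869 and adjusted p = 0.803, within a range of 0.803 to 0.989 over all alternatives). Acsm4 differed by 0.10 (-0.68 to 0.87) and Glyatl3 by 0.26 (-0.12 to 0.64). The Acsm4 difference was -0.27 without vehicle replicate 1. That of Glyatl3 was 0.12 without vehicle replicate 1 and 0.41 without vehicle replicate 3. These 2 probes were only a little above background, with processed signals of 24.6 to 35.8 on the treated arrays and 19.5 to 45.4 on the vehicle arrays. With normexp background correction the Glyatl3 difference was 0.11.

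The 3 Acsm5 probes gave differences of unlike size, all above 0 and with intervals that overlapped. Probe A_64_P151353 had 0.35, 0.79 and 0.80 in treated cortex and 0.43, -0.05 and 0.12 in vehicle cortex, a difference of 0.48 (95% interval 0.05 to 0.91) that did not pass in limma (adjusted p = 0.729). Probe A_44_P212813 had -1.14, -1.59 and -1.59 in treated cortex and -1.06, -2.44 and -1.24 in vehicle cortex. The groups overlapped on each of the 3 probes. Probe A_44_P992673 differed by 0.02 (-1.02 to 1.06) and probe A_44_P212813 by 0.14 (-0.78 to 1.07). Treated replicate 1 was the highest treated animal on these 2 probes and the lowest on the first. Without vehicle replicate 2 the 3 differences were 0.37, -0.41 and -0.29, and without benzyl acetate replicate 1 they were 0.63, -0.25 and -0.0077, so the sign of the second and the third probe changed with either animal. Normexp and median scaling, with every animal kept, also turned the sign of A_44_P992673, to -0.01 in both. The Acsm1 probes differed by -0.07 and -0.05, and their sign turned on single animals too. They were at -0.27 and -0.32 without vehicle replicate 2, at 0.04 and 0.04 without vehicle replicate 1, and at 0.03 and 0.14 without vehicle replicate 3. The adjusted p-values of all 13 member probes in limma ran from 0.598 to 0.997.

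**Figure D3:**
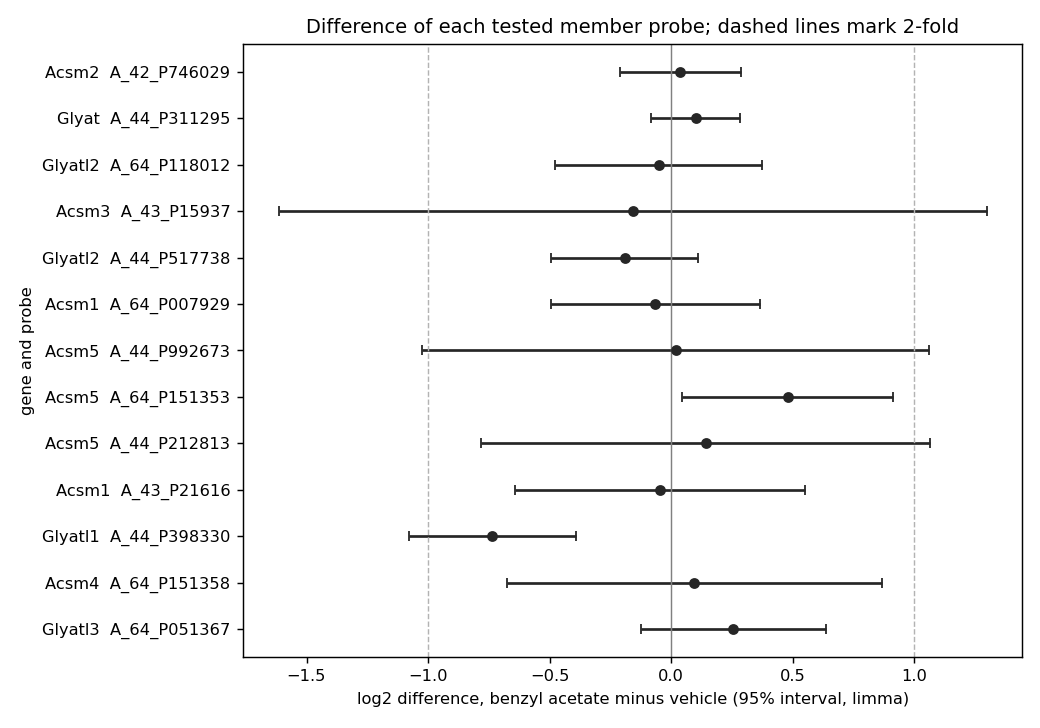
Log2 difference, benzyl acetate minus vehicle, for each of the 13 tested member probes (points) with its 95% interval from limma (bars) and 2-fold marked by dashed lines. The interval of Glyatl1, -1.08 to -0.39, lies wholly below 0, that of Acsm5 probe A_64_P151353, 0.05 to 0.91, wholly above it, and that of Acsm3 is the widest.

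The spread between animals set some members apart from one another. The SD of Acsm3 was 1.25 among treated animals, and 0.642% of all tested probes had a treated SD at least as large. Among the 10589 brightest of them the number was 16. Its SD among vehicle animals was 0.098, which 61.0% of tested probes matched or exceeded. Glyatl1 and the Glyatl2 probes were likewise wider among treated animals. The Glyatl2 SDs were 0.35 and 0.23 with benzyl acetate and 0.032 and 0.016 with vehicle. Treated SDs at least as large were found in 12.5% and 23.7% of tested probes, and vehicle SDs at least as large in 93.0% and 98.3%. Acsm1 and Acsm5 ran the other way on 4 of their 5 probes. So did the dim probes of Acsm4 (0.17 with benzyl acetate, 0.63 with vehicle) and Glyatl3 (0.090 and 0.29). Vehicle SDs at least as large were found in 3.00% of tested probes for Acsm4 and in 15.4% for Glyatl3. Among the 10589 dimmest tested probes the median vehicle SD was 0.22. The brightest Acsm5 probe had an SD of 0.46 with benzyl acetate and 0.77 with vehicle. The brighter Acsm1 probe had 0.059 with benzyl acetate and 0.35 with vehicle. Vehicle SDs at least as large were found in 1.85% of tested probes for this Acsm5 probe and in 11.2% for this Acsm1 probe. On all 5 Acsm1 and Acsm5 probes vehicle replicate 2 was the lowest of the 6 animals, which was so for 17.7% of all tested probes.

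The genes beside the members were then read in the order of the RefSeq table. Acsm3 lies between Thumpd1 and Rexo5. Its whole length of 26677 bases falls inside the span of Eri2, an exonuclease gene on the other strand. Rexo5, also an exonuclease gene, had -3.07, -3.42 and -4.61 in treated cortex and -3.21, -2.98 and -2.91 in vehicle cortex. The Eri2 probe with the widest treated range, A_43_P18395, had -1.13, -1.51 and -2.59 in treated cortex and -1.67, -1.65 and -1.79 in vehicle cortex. Thumpd1, which encodes a THUMP domain protein of tRNA acetylation, had 0.79, 0.63 and 0.24 in treated cortex and 0.70, 0.65 and 0.50 in vehicle cortex on probe A_44_P548303. On all 8 probes of these 3 genes treated replicate 1 was the highest treated animal and replicate 3 the lowest, as for Acsm3, an arrangement found in 15.9% of all tested probes. The gap between those 2 animals was 2.47 for Acsm3, 1.54 for Rexo5, 0.61 to 1.46 for the 4 Eri2 probes and 0.54 to 0.75 for the 3 Thumpd1 probes. A gap of at least 0.5 in that direction was found in 6.33% of tested probes. This cut was set after the values were seen and lies just below the smallest of these gaps, so all of them pass it. The order was not limited to these genes. Among the other 16 tested probes within 10 genes of the cluster, synthetases included, 7 had it, among them Zp2 with a gap of 6.97, both Umod probes with 0.13 and 0.54, RGD1559600 with 0.48 and Acsm5 probe A_44_P992673 with 0.83. Dcun1d3, the gene after Rexo5, did not have it, with a gap of 0.0031.

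Between Acsm2 and Acsm1 lies RGD1559600, with signals of -0.67, -0.78 and -1.16 in treated cortex and -0.17, -1.28 and -0.36 in vehicle cortex. Vehicle replicate 2 was its lowest animal, as for Acsm1 and Acsm5. Acsm2, which lies between Acsm5 and RGD1559600, had its highest vehicle signal in that animal, 7.63. Next to Glyatl2, the olfactory receptor gene Or5b95 was dim, at -5.55, -5.16 and -5.37 in treated cortex and -4.71, -4.26 and -5.03 in vehicle cortex. Its groups did not overlap, and its difference of -0.69 did not pass in limma (adjusted p = 0.71). Cntf, on the other side of Glyatl2, differed by -0.03 (-0.20 to 0.14) and C9h6orf141, beside Glyatl3, by 0.22 (-0.27 to 0.70). The neighbours of Acsm3 were examined further after their values were seen, and what these shared arrangements come from was not tested.

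**Figure D4:**
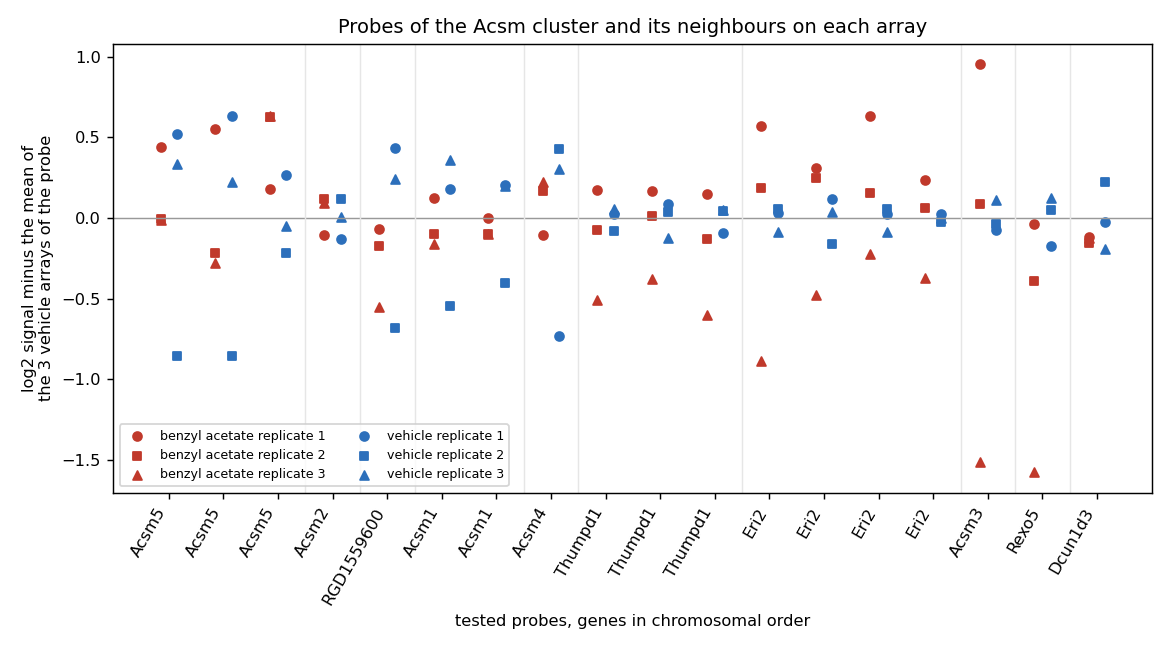
Log2 signal of each array minus the mean of the 3 vehicle arrays of that probe (vertical) for the tested probes of the synthetase cluster and its neighbours, with genes in chromosomal order and not to distance, benzyl acetate arrays in red left of vehicle arrays in blue. From Thumpd1 to Rexo5 treated replicate 1 (circle) lies above treated replicate 3 (triangle), by 2.47 for Acsm3, and at Acsm1, Acsm5 and RGD1559600 vehicle replicate 2 (square) is lowest.

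The rest of the route from benzyl acetate to urinary hippurate, with genes related to it, was described by 6 lists of 93 genes. Of these 83 were tested with 1 probe each, the brightest. The lists also hold related acyl-CoA synthetases, thioesterases and other genes beside that route, so their counts are not those of the route alone. Limma called 0 of the 83 higher and 0 lower, against 0% called of 31179 genes, and 4 had an unadjusted p under 0.05 (6.79% of all genes). Their median log2 difference was 0.03 with 47 higher and 36 lower, against 0.01 over all genes. Intervals lay inside 1.5-fold for 65 of them and inside 2-fold for 78. The brightest genes of each list are named.

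Ester hydrolysis and oxidation of benzyl alcohol had 12 of 15 tested genes higher and a median of 0.12. Over all genes 16825 of 31179 were higher. Of the 18 genes listed for these steps, Adh1, Adh7 and Ces2a were not tested. Aldh7a1, an aldehyde dehydrogenase, differed by 0.12 (-0.10 to 0.34), Aldh1a1, a retinal and aldehyde dehydrogenase, by -0.02 (-0.19 to 0.16), and Ces1f, a carboxylesterase, by 0.04 (-0.14 to 0.23). Coenzyme A supply had 7 of 13 higher and a median of 0.0026. Ppcs, the second enzyme of coenzyme A synthesis, differed by -0.12 (-0.30 to 0.067), the pantetheinase Vnn1 by 0.12 (-0.52 to 0.76) and Coasy, which completes coenzyme A, by 0.18 (-0.063 to 0.43). Glycine supply and breakdown had 7 of 16 higher and a median of -0.02. Within it Agxt2, a mitochondrial aminotransferase, differed by -0.17 (-0.40 to 0.071), the serine synthesis enzyme Phgdh by -0.03 (-0.34 to 0.28) and Gatm, which uses glycine to make the creatine precursor, by 0.55 (-0.016 to 1.11).

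Among related acyl-CoA synthetases 6 of 12 were higher, with a median of -0.05. Slc27a2, which activates very long-chain fatty acids, differed by 0.12 (-0.070 to 0.31), the mitochondrial acetate synthetase Acss1 by 0.26 (-0.056 to 0.58) and the long-chain synthetase Acsl1 by 0.11 (-0.34 to 0.56). Thioesterases and other acyl transfer enzymes had 7 of 16 higher and a median of -0.01, with the carnitine acetyltransferase Crat at -0.04 (-0.26 to 0.18), the cysteine conjugate acetyltransferase Nat8 at 0.12 (-0.29 to 0.54) and the thioesterase Acot1 at -0.19 (-0.47 to 0.089). Transport of hippurate and benzoate had 8 of 11 higher and a median of 0.06, with the dicarboxylate carrier Slc13a3 at 0.03 (-0.12 to 0.18) and the basolateral organic anion transporters Slc22a6 at 0.19 (-0.0044 to 0.39) and Slc22a8 at 0.14 (-0.026 to 0.32). Adjusted p-values over all genes in limma were at least 0.637 for every gene of the 6 lists. The proximal tubule markers, the cells that carry the pathway, had 8 of 13 higher and a median of 0.04.

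**Figure D5:**
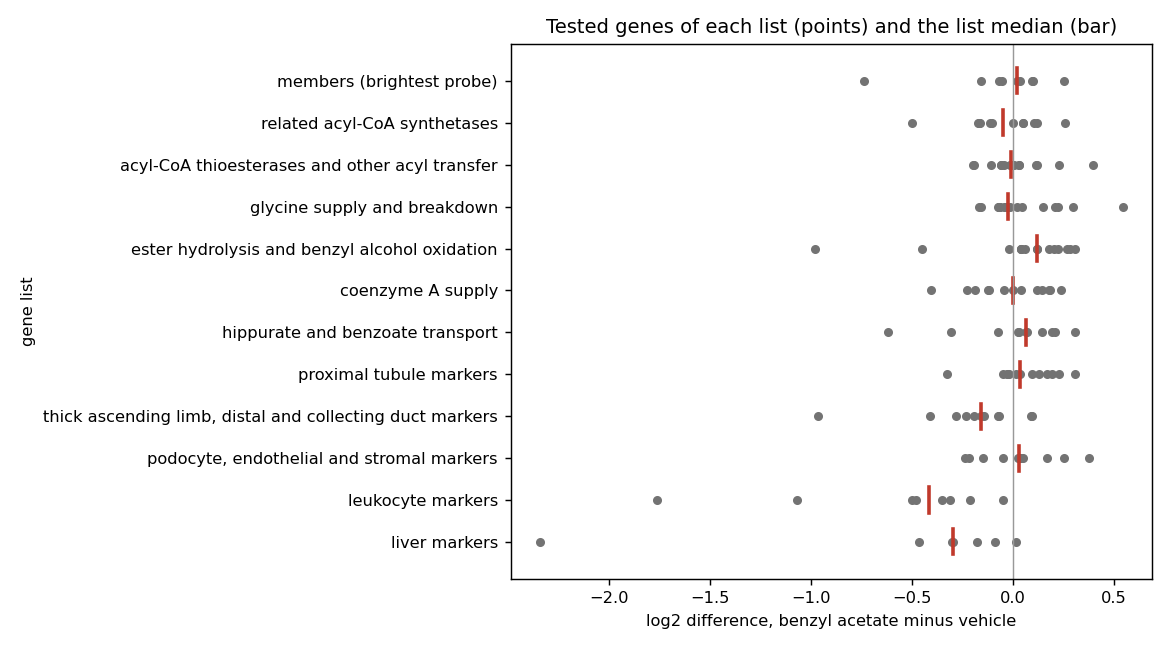
Log2 difference, benzyl acetate minus vehicle, of each tested gene (points) and the median of each list (red bar), with the members first, the 6 pathway lists next and the 5 cell type marker lists below. The median of the members is 0.02, the medians of the 6 pathway lists lie between -0.05 and 0.12, and 0 genes passed the threshold.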

How the data were processed

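RNA of renal cortex from 3 benzyl acetate and 3 vehicle rats, labelled with Cy3, was hybridised to 1-colour Agilent arrays. Groups and replicate numbers come from the sample labels, and the design text calls the animals of a group biological replicates. The authors deposited scanner tables of linear intensity, made with Agilent Feature Extraction 10.7 according to the submitters' processing notes, with background subtracted and arrays unscaled, as the file headers show. Flags (well above background, outlier, saturated) are 0 or 1 in those tables, per the file headers. A second table holds the same intensity divided by about the 75th percentile of its array. Its scale is linear and not centred, with column medians of 0.115, 0.112 and 0.113 for benzyl acetate and 0.11, 0.111 and 0.111 for vehicle.

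The 75th percentile of each array over 61537 probes, controls left out, was subtracted after log2 transformation, and outlier spots were dropped. RefSeq transcripts of GRCr8 named 28206 probes, and near-identical family members can share signal. The 42355 probes that passed the detection flag in all 3 animals of either group were fitted by group in limma 3.58.1 (R 4.3.3), with Benjamini-Hochberg adjustment, and the fit was tested on simulated data. Lists used each gene's brightest probe. Named were every member probe, the 3 brightest genes of each pathway list and the tested neighbours of each member. Like the members, the lists were chosen with earlier results of these data known, and the wider chromosomal neighbourhood was added after seeing the data. Alternatives were a replicate block, a slide block (vehicle replicate 1 was alone on slide 1), normexp on median spot signals with an offset of 50, quantile and median scaling, other filters, outlier spots kept, 1 probe per gene, the second table and leaving out each replicate.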

Additional observations from a re-analysis of the deposited data

How the results depend on the processing

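Under the 16 alternatives limma called 0 member probes, and the lowest adjusted p of a member was 0.249 (Glyatl1, no filter on dim probes). The order of the 9 genes by vehicle signal was the same under all of them. Only normexp, quantile normalization and leaving out a vehicle replicate could change that order. The other alternatives keep the vehicle values or shift whole arrays. Normexp called 2 of all probes lower, and leaving out each replicate gave 0 to 2. Member probes with an unadjusted p under 0.05 numbered 1 with the replicate block, median scaling and 1 probe per gene, and 1 to 2 when replicates were left out. Of the 13 member probes 5 (Glyat, Glyatl1, Glyatl3, the dimmer Glyatl2 probe and Acsm5 probe A_64_P151353) kept their sign throughout. The replicate block, other filters, outlier spots kept and 1 probe per gene could not turn a sign. They left the difference of each of these probes that they tested unchanged. The sign changed for Acsm2 with the slide block (-0.028) and quantile normalization (-0.0054), and for Acsm5 probe A_44_P992673 with normexp (-0.013) and median scaling (-0.0093). The slide block, which takes out vehicle replicate 1, also changed it for Acsm1 (0.036 and 0.044) and Acsm4 (-0.27). Leaving out each replicate gave -0.028 to 0.11 for Acsm2, -0.24 to 0.096 for the brighter Glyatl2 probe, -0.71 to 0.52 for Acsm3, -0.27 to 0.31 for Acsm4, -0.41 to 0.335 and -0.29 to 0.40 for Acsm5 probes A_44_P992673 and A_44_P212813, and -0.27 to 0.036 and -0.32 to 0.14 for the brighter and dimmer Acsm1 probes. The median of the members ran from -0.18 to 0.13. At an unadjusted p under 0.05 median scaling gave 1066 probes higher and 1777 lower, against 1557 and 1275 as reported. Median scaling shifts whole arrays, and with it the median log2 difference over all tested probes was -0.020, against 0.0090 as reported. Why the scalings differ was not tested. The deviations of same-numbered animals had correlations of -0.11, -0.0045 and 0.0024, and those of animals with different numbers -0.099 to 0.12. With so few animals per group, these correlations cannot show whether the numbers pair the animals. With the replicate block Glyatl1 was at -0.74 (adjusted p = 0.711).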

Other observations

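Other genes near the 2 clusters differed widely between animals of the same group. They were picked after their values were seen. Zp2, an egg coat gene within 10 genes of Acsm3, had log2 signals of -0.90, -2.09 and -7.88 in treated cortex and -2.24, -1.73 and -0.82 in vehicle cortex. Fam111a, a protease gene near Glyatl1, had 1.45, -6.91 and 1.39 in treated cortex and -5.15, -5.35 and 0.40 in vehicle cortex on probe A_44_P899616, and its other 2 probes separated the same 3 high animals from the same 3 low ones. Gp2, which encodes a pancreatic and intestinal glycoprotein and lies near Acsm5, had -0.88, 1.18 and 1.13 in treated cortex and -0.19, 1.31 and -1.38 in vehicle cortex. Glyat, beside Glyatl1 and close to Fam111a, kept within 6.15 to 6.38 in all 6 animals.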
